A study of Mus musculus with 5 samples.

Results

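The RNA profiles of mouse embryonic stem cells transfected with an siRNA against Dhx30 were compared directly with those of cells transfected with an siRNA against Tfam. Each of the 4 siRNA libraries was deposited as a log2 ratio to the same negative control library, labelled NC, and subtracting the siTfam ratios from the siDhx30 ratios removes that control. The comparison used 4 of the 5 libraries of the series, 2 siDhx30 and 2 siTfam, and the 12088 of 12930 genes in the table that had a value in all 4. The cells were of the OG2 line, with the strain given as (CBA/CaJxC57BL/6J) crossed with 129Sv/Jae. All groups, NC included, were kept for 24 h on gelatin in medium with LIF, PD0325901 and CHIR99021. They were then transfected with 50 nM siRNA and moved at the same time to a differentiation medium with 12.5 ng/ml bFGF, 20 ng/ml Activin A and 1% knockout serum replacement, where they stayed for 36 h. Such a medium is used to lead cells out of the naive state, and the groups differ in which gene was targeted. The labels name 1 cell line, give no siRNA sequence, and do not say whether libraries of a group came from separate cultures, so every p-value here rests on a spread that may be technical and not one between cultures.

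Dhx30 encodes a DEAH-box RNA helicase found in the RNA granules of mitochondria, where mitochondrial transcripts are processed and the mitochondrial ribosome is assembled. Tfam encodes the HMG-box protein that packages mitochondrial DNA and starts its transcription. Both genes therefore act on mitochondrial gene expression, one mainly on RNA and ribosomes and the other on DNA and transcription, while nearly all proteins of mitochondria are encoded in the nucleus. Cells with impaired mitochondrial gene expression are known to induce the integrated stress response, in which the transcription factor ATF4 raises genes of amino acid synthesis and transport. The question asked of these libraries was where the RNA profiles of the 2 knockdowns differed from each other.

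Values below are log2 ratios of an siRNA library to NC, given in the order siDhx30 replicates 1 and 2 and siTfam replicates 1 and 2, and a difference is the siDhx30 mean minus the siTfam mean on the log2 scale. The table holds no counts, so the depth behind a value is unknown. Low counts could be inferred in part, because genes with few reads can share a ratio to the last digit with another gene of the same library. Such a repeated value was taken as a mark of few reads, which could not be checked without counts. Of the genes with a value missing in some library 84.4% had such a repeated value, against 25.9% of the 12088 complete genes, and repeated values are named where they bear on a gene. The libraries did not group by siRNA. Over all genes the SD of the difference between libraries was 0.549 within siDhx30 and 0.591 within siTfam, but 0.361 between siDhx30 replicate 1 and siTfam replicate 1. The remaining pairs of unlike siRNA lay between 0.542 and 0.616. Each library labelled replicate 1 was thus closer to the other siRNA than to its own replicate, and the order was the same over genes without repeated values, at 0.413, 0.414 and 0.240 for those 3 pairs. Medians of gene groups are for this reason also given within the libraries numbered 1 and within those numbered 2.

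**Figure D1:**
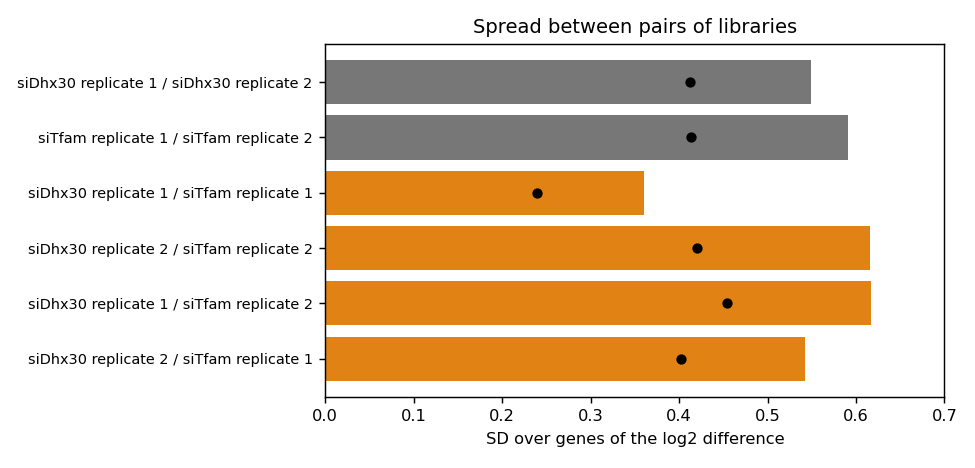
SD over 12088 genes of the log2 difference between each pair of libraries (bars, grey for the same siRNA and orange for different siRNAs), with the SD over genes without repeated values as black points. The pair of siDhx30 replicate 1 and siTfam replicate 1 has the shortest bar, 0.361, and every other bar lies between 0.542 and 0.616.

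The targeted genes were the check of the labels. Dhx30 (ENSMUSG00000032480.17, chr9:110084320-110117830, minus strand, GRCm38) had ratios of -0.40 and -0.20 in siDhx30 against 0.01 and 0.04 in siTfam. Both siDhx30 libraries lay below both siTfam libraries. The difference was -0.33 (SE 0.16, 95% interval -0.77 to 0.12, adjusted p = 0.999 in limma), which puts Dhx30 RNA in siDhx30 at 79.8% of its siTfam level with an interval of 58.5% to 109%. A lower difference than that of Dhx30 was seen in 10.3% of all genes. Tfam (ENSMUSG00000003923.14, chr10:71225464-71238280, minus strand) had ratios of 0.12 and -0.01 in siDhx30 against -0.28 and -0.02 in siTfam. Both siTfam libraries lay below both siDhx30 libraries, but siTfam replicate 2 was within 0.01 of siDhx30 replicate 2. Tfam RNA in siTfam was 87.0% of its siDhx30 level (95% interval 61.9% to 122%, adjusted p = 0.999 in limma), and 20.7% of genes had a higher difference. Each siRNA thus had less RNA of its own target than the other siRNA in the means, and neither difference passed the test. The knockdown at the protein level was not measured here.

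No gene passed. With limma and Benjamini-Hochberg adjustment over the 12088 genes, 0 genes (0%) had an adjusted p under 0.05 and the smallest adjusted p was 0.999, while 337 genes (2.79%) had an unadjusted p under 0.05, 156 higher (1.29%) and 181 lower (1.5%) in siDhx30. The median difference over all genes was -0.0015, and from the 5th to the 95th percentile differences ran from -0.52 to 0.59. The median 95% interval, which is not adjusted for the number of genes, reached 0.56 to either side. A typical gene needed a larger difference than this to pass after adjustment. In simulated data of this size a log2 change of 1 was found in 0.4% of the altered genes, a change of 2 in 43.2% and a change of 3 in 77.2%. The simulated noise was normal and independent between libraries. The real libraries did not group by siRNA and hold genes with repeated values, so these rates are a rough guide only. Both siDhx30 libraries lay above both siTfam libraries in 1781 genes (14.7%) and below them in 1734 (14.3%), together 29.1% of all genes. Because nothing passed, the genes and groups below are described by their values, their order in the 4 libraries and these background shares.

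The genes with the widest gap between the groups included enzymes, transporters and membrane proteins at the siDhx30-high end. Cyp4f15, a cytochrome P450 of fatty acid hydroxylation, was at -1.36 and -0.26 in siDhx30 against -4.16 and -3.95 in siTfam. All 4 libraries lay below NC, those of siTfam further, with a difference of 3.24 (SE 0.42). Each of the 10 genes of this direction plotted with the leading genes had a repeated value in at least 1 library. Apba2, an adaptor protein of neuronal vesicle traffic, was at 1.07 and 1.20 against -0.34 and -0.29. It lay above NC in both siDhx30 libraries and below it in both siTfam libraries, a difference of 1.45 (SE 0.15, 2.74-fold). Slc39a8, a zinc and manganese importer, had nearly the same pattern, 0.64 and 0.76 against -0.69 and -0.78 (difference 1.44, SE 0.15). Emp3, a tetraspan membrane protein, was at 0.32 and 0.57 against -0.87 and -0.86. In Slc39a8 and Emp3, as in Apba2, the groups stood on opposite sides of NC. Cry2, a repressor of the circadian clock, was also on opposite sides, at 0.64 and 0.20 against -0.80 and -0.77. Zscan29, Myo15, Oplah, Ecel1 and Papln, also among the leaders of this direction, differed by 1.17 to 2.03. The smallest unadjusted limma p of all genes, 0.000304, belonged to 4930415C11Rik, an antisense transcript at -0.61 and -0.66 against -2.35 and -2.31; the sources used here do not say whether counting used strand, and its reads may come from the gene it overlaps. The lincRNA 1700110I01Rik, at -0.61 and -1.61 against -4.76 and -4.55, also had 1 of the 5 smallest p-values, and both had a repeated value.

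At the siDhx30-low end, 5 of the 12 leading genes had no repeated value: Rn7sk, Trnp1, Astn1, Creb3l2 and Abcc10. Rn7sk, the 7SK RNA that holds the elongation factor P-TEFb inactive, was at -1.99 and -1.19 in siDhx30 against 1.08 and 0.01 in siTfam. The groups were more than 1 log2 unit apart, with a difference of -2.13 (SE 0.50), but 7SK has many near-identical copies in the genome and the authors' counting could split their reads. Trnp1, a nuclear protein of neural progenitors, was at -2.62 and -3.39 against -1.67 and -0.91 (difference -1.72, SE 0.41). All 4 libraries lay below NC, those of siDhx30 further. Creb3l2, a transcription factor of the secretory pathway held in the endoplasmic reticulum membrane, was likewise below NC in all 4, at -2.09 and -1.53 against -0.69 and -0.46. Astn1, a neuronal adhesion protein, stood on opposite sides of NC, at -0.51 and -0.78 against 0.36 and 0.39 (difference -1.03, SE 0.17, or 0.491 of the siTfam level). Abcc10, a drug-efflux transporter of the ABC family, did so too, at -0.74 and -0.55 against 0.21 and 0.47. The microRNA host transcript Mir142hg was at -0.20 and -0.20 against 1.69 and 1.19, with repeated values in 3 libraries. Ahsg, Trpc5, Rbm6-ps1, Maats1os, Tspan32 and Prcd completed these leaders with differences from -0.90 to -2.67. Repeated values, taken as a mark of few reads, were present in 18 of all 24 leading genes. They were also present in 175 of the 220 genes (79.5%) whose groups did not overlap and whose difference was beyond 1 in size.

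**Figure D2:**
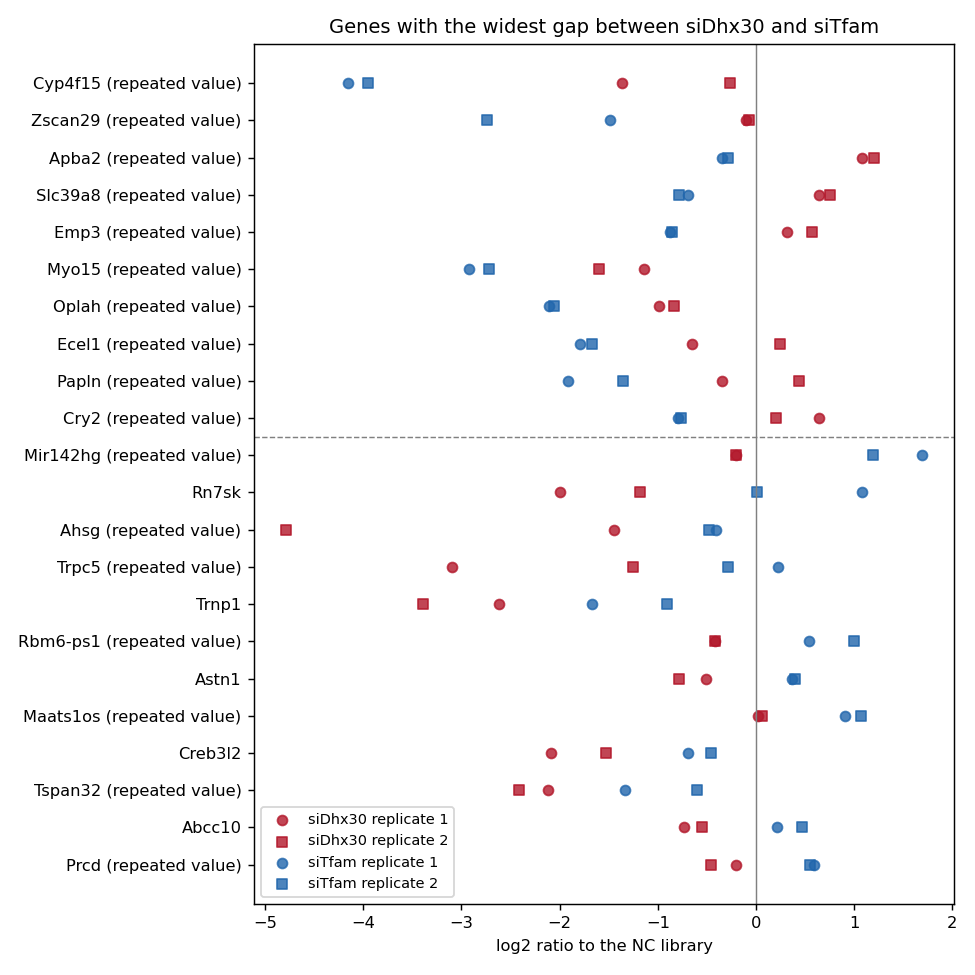
Log2 ratio to NC of 22 of the 24 genes with the widest gap between the groups, 10 with siDhx30 higher (above the dashed line) and 12 with siDhx30 lower; red points are siDhx30, blue points siTfam, circles replicate 1 and squares replicate 2. Genes marked as having a repeated value share a ratio with another gene in at least 1 library, and Rn7sk, Trnp1, Astn1, Creb3l2 and Abcc10 do not.

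Across protein-coding genes the difference followed transcript length. The 9257 protein-coding genes were put in 5 classes of equal size by length. In the class with the shortest transcripts (median 1626 nt) the median difference was -0.08 and 31.5% of genes were higher in siDhx30. In the class with the longest transcripts (median 7124.5 nt) the median difference was 0.10 and 70.0% were higher. The 3 classes between them had medians of -0.03, 0.01 and 0.04. Genes whose groups did not overlap with siDhx30 higher made up 7.02%, 10.7%, 15.1%, 19.6% and 24.7% of the classes from short to long, and those with siDhx30 lower 20.5%, 18.0%, 14.2%, 10.3% and 6.97%. The same order was present in both numbered pairs of libraries, from -0.06 to 0.06 in the libraries numbered 1 and from -0.10 to 0.12 in those numbered 2. By library, the median of the shortest and the longest class was -0.10 and 0.09 in siDhx30 replicate 1, -0.01 and 0.01 in siDhx30 replicate 2, -0.03 and 0.03 in siTfam replicate 1 and 0.08 and -0.11 in siTfam replicate 2. The trend thus ran in opposite directions in siDhx30 replicate 1 and siTfam replicate 2, and the difference by length rested mostly on these libraries. It was nearly flat in siDhx30 replicate 2, and siTfam replicate 1 ran the same way as siDhx30 replicate 1. GC content moved the median less, from 0.03 in the class with the lowest GC content to -0.01 in that with the highest. Removing a trend on length and GC content from each library left medians of -0.02 in every length class. The trend was fitted to these same genes, so the even medians follow largely from the fit. Whether the length trend is a property of the knockdowns or of the libraries was not tested, and the medians of gene groups are therefore given with the trend removed as well.

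**Figure D3:**
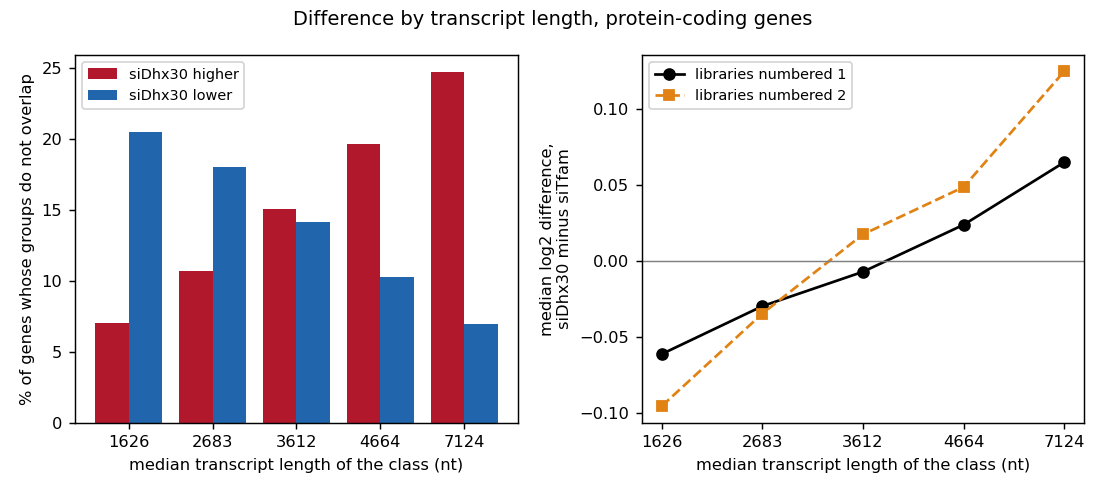
Protein-coding genes in 5 classes by transcript length, with the median length of each class in nt on both x axes. Left, percent of genes whose groups do not overlap, siDhx30 higher in red (7.02% to 24.7%) and siDhx30 lower in blue (20.5% to 6.97%); right, median log2 difference between the libraries numbered 1 (black) and numbered 2 (orange), both of which go from below 0 to above 0 with length.

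Genes of the cytosolic ribosome were lower in siDhx30 than in siTfam as a group. Of 70 ribosomal protein genes 66 were lower and 4 higher, with a median difference of -0.17, against -0.0015 over all genes. In 24 of the 70 both siDhx30 libraries lay below both siTfam libraries, 34.3% against the background of 14.3%, and in 2 (2.86%) above them. The large and the small subunit did not stand apart, with 39 of 40 and 27 of 30 genes lower and medians of -0.15 and -0.18. The group median was -0.04 and 0.0047 in the siDhx30 libraries and 0.08 and 0.22 in the siTfam libraries, so the distance came mostly from siTfam values above NC, and it was -0.12 in the libraries numbered 1 and -0.20 in those numbered 2. Rpl9 had the widest gap, at -0.21 and -0.06 against 0.34 and 0.19 (difference -0.40, SE 0.16, adjusted p = 0.999 in limma). Rps16 was at -0.01 and -0.01 against 0.29 and 0.23. Ribosomal protein genes have many processed pseudogenes, between which and their parents reads can be split. The 385 processed pseudogenes of all kinds in the table had a median difference of -0.17, and 60.5% of them had a repeated value. Of the 385, 32 lay above without overlap, a smaller share than the background of 14.7%. Below without overlap were 78, a larger share than the background of 14.3%. Ribosomal protein transcripts are short (median 1124 nt), and with the length and GC trends removed their median was -0.10, with 60 of 70 below 0, against -0.02 over all protein-coding genes.

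Nuclear genes of the respiratory chain were lower in siDhx30 to a similar degree. Of 38 genes for complex I, the NADH dehydrogenase, 29 were lower, 13 of them (34.2%) without overlap, and the median difference was -0.16. The 26 subunits had a median of -0.17 and the 12 assembly factors one of -0.05. Ndufa12, a subunit of the matrix arm, was at 0.34 and 0.08 against 0.70 and 0.61. Ndufb8, of the membrane arm, was at -0.03 and 0.0003 against 0.22 and 0.32. In both genes the siTfam values were the high ones. Ndufb5 was at 0.01 and -1.12 against 0.59 and 0.45, with repeated values in all 4 libraries, and Ndufa4l2, included by its name only, lay on the other side at 0.51 and 0.92 against 0.16 and -0.90. Of 36 subunits of complexes II to V 30 were lower, 7 (19.4%) without overlap and none above without overlap, and the median was -0.13. In the class of shortest transcripts 20.5% of protein-coding genes lay below without overlap, so the share of 19.4% was near that of short transcripts. All 8 genes of complex III (median -0.19) and 10 of 11 genes of complex IV, cytochrome oxidase (median -0.22), were lower, and 9 of 14 genes of complex V, ATP synthase (median -0.07). Uqcrq of complex III was at -0.13 and -0.07 against 0.16 and 0.27, and Atp5l of complex V at -0.04 and -0.06 against 0.19 and 0.29. Without siDhx30 replicate 2 the medians of complex I and of complexes II to V were -0.06 and -0.04. With the length and GC trends removed they were -0.06 and -0.09, since these transcripts are short as well, with medians of 1478 and 1001 nt.

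Mitochondrial ribosomal proteins, which are made in the cytosol and assembled into the ribosome that Dhx30 is known to assist, were lower in 54 of 68 genes. Their median difference was -0.08, with 14 (20.6%) below and 1 (1.47%) above without overlap. Their median length of 1962 nt falls in the class of shortest transcripts, where 20.5% of genes lay below and 7.02% above without overlap. The share below was thus near that of short transcripts. The median difference rested more on the libraries numbered 2 (median -0.15) than on those numbered 1 (-0.02), and without siTfam replicate 2 it was 0.02. Mrps24, of the small subunit, was at -0.26 and -0.23 against 0.09 and 0.21, the widest gap of the group. Mrps26 was at -0.23 and -0.25 against -0.0048 and 0.25. The large subunit had 35 of 40 genes lower and the small subunit 19 of 28. After removal of the trends the group median was -0.04, against -0.02 over protein-coding genes.

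The proteins that act beside Dhx30 in mitochondrial RNA were close to the background. Of 42 genes of the RNA granule, RNA processing and ribosome assembly, Dhx30 among them, 5 lay above (11.9%) and 6 below (14.3%) without overlap, and the median was -0.06, or 0.0019 without siTfam replicate 2. Mtg2, a GTPase of the large subunit's assembly, was at -0.15 and -0.19 against -0.01 and 0.45, and Eral1, the chaperone of the small subunit's rRNA, at -0.07 and 0.05 against 0.13 and 0.49. Ybey, an endonuclease of rRNA maturation, went the other way, at 0.22 and -0.06 against -0.20 and -0.93. In Mtg2, Eral1 and Ybey siTfam replicate 2 was the library furthest from the other 3. Of 20 genes that transcribe and replicate mitochondrial DNA, Tfam among them, 5 (25%) lay above and 3 (15.0%) below without overlap, and the median was 0.06. Tfb2m, the transcription factor that opens mitochondrial promoters together with Tfam, was at -0.14 and -0.05 against -0.38 and -0.41. It was thus below NC in all 4 libraries and lower in siTfam (difference 0.30, SE 0.15). Tk2 and Lig3, the thymidine kinase and the DNA ligase of mitochondria, were higher in siDhx30 by 0.54 and 0.73, whereas Rrm2b, a ribonucleotide reductase subunit that p53 also controls, was lower by 0.30, at 0.04 and 0.35 against 0.58 and 0.42.

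The RNAs encoded in the mitochondrial genome went both ways. Of 14 rRNA and tRNA genes with complete values 8 were higher in siDhx30, 4 (28.6%) above and 1 (7.14%) below without overlap, against the backgrounds of 14.7% and 14.3%. Their median difference was 0.08, but -0.06 without siTfam replicate 1, -0.02 without siDhx30 replicate 2 and -0.05 over the 7 genes with no repeated value. The rRNA of the small subunit, mt-Rnr1, was at -0.27 and -0.14 against -0.09 and -0.04, without overlap but with a difference of -0.14 and an SE of 0.15. That of the large subunit, mt-Rnr2, was at -0.57 and -0.34 against -0.53 and -0.28, with the libraries of like number close together. Among tRNAs mt-Tw was at 0.66 and 0.87 against 0.16 and -1.16, and mt-Ty at 0.51 and 2.97 against -0.33 and 0.21, each with 1 library far from the others and mt-Ty with a repeated value in 1. The messenger RNAs of the mitochondrial genome were not analysed here.

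Among genes of the integrated stress response, the median of those of amino acid synthesis lay above NC in siTfam and near or below NC in siDhx30. That smaller group was formed with its values known. Of 41 genes 29 were lower in siDhx30, 16 (39.0%) without overlap against the background of 14.3%, and 6 (14.6%) lay above without overlap, at the background of 14.7%; the median difference was -0.12. The group has transcripts of ordinary length (median 2896 nt), and its median with the trends removed was -0.12 as well, with 29 of 40 genes below 0. It was -0.18 in the libraries numbered 1 and -0.0091 in those numbered 2, so the distance rested on the first of these pairs. Without siDhx30 replicate 1 the median was -0.05.

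The stress response gene with the widest gap was Nupr1, a small chromatin-associated stress protein, at 0.12 and -0.09 in siDhx30 against 0.94 and 0.74 in siTfam. The difference was -0.82 (SE 0.18, 0.566 of the siTfam level, adjusted p = 0.999 in limma), and 1 library had a repeated value. Vldlr, a lipoprotein receptor that ATF4 is known to induce, was at -0.0012 and -0.24 against 0.56 and 0.73 (difference -0.77, SE 0.18). In both genes siDhx30 was close to NC and both siTfam libraries lay above it. Of the 11 genes of amino acid and one-carbon synthesis 8 were lower and 6 lay below without overlap, against 14.3% of all genes. The median of the 11 was -0.12 and -0.01 in siDhx30 and 0.20 and 0.15 in siTfam. Asns, asparagine synthetase, was at 0.02 and -0.04 against 0.47 and 0.27. Gpt2, the mitochondrial alanine aminotransferase, was at -0.16 and -0.07 against 0.26 and 0.23. Cth, which makes cysteine from cystathionine, was at 0.27 and -0.05 against 0.57 and 0.46. The serine and folate enzymes Psat1, Phgdh and Mthfd2 also lay below without overlap, by 0.19 to 0.21, whereas Shmt2, Mthfd1l, Psph, Pycr1 and Aldh18a1 overlapped or went the other way. Of 8 amino acid transporters 7 were lower, 4 without overlap, such as Slc7a11, the cystine importer, at 0.13 and 0.02 against 0.34 and 0.24.

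The 6 transcription regulators of that response with complete values had a median difference of -0.18, close to that of the synthesis genes, with 4 lower and 2 higher. Their median was -0.07 and 0.12 in siDhx30 and 0.20 and 0.19 in siTfam, and the median difference was -0.31 in the libraries numbered 1 and 0.03 in those numbered 2. Atf4 itself was at -0.14 and 0.08 against 0.06 and 0.21, and Ddit3, which encodes CHOP, at -0.58 and 0.15 against 0.29 and 0.13. Both overlapped, and of the 6 only Nupr1 did not. ATF4 is known to be controlled largely at translation, which these libraries do not measure. The 5 kinases and upstream sensors had a median of -0.0032, with 3 lower and 2 higher. Eif2ak4, the kinase that senses lack of amino acids, was at -0.12 and 0.49 against 0.58 and 0.42, and it, Eif2ak1 and Oma1 overlapped. Eif2ak3 and Dele1, a kinase of the response and the messenger that carries mitochondrial stress to it, were the 2 higher ones and lay above without overlap. Eif2ak3 was at -0.05 and -0.16 against -0.34 and -0.27, and Dele1 at -0.20 and -0.22 against -0.34 and -0.34.

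ATF4 and its partners of the C/EBP family bind a composite element whose letters are TGATGNAA, searched here on both strands. Promoter windows of 250 bases before to 50 after the start, from RefSeq on GRCm38.p6, were found for 32 of the 41 genes. The element was present in 9 of them (28.1%), against 2.81% of the 8340 tested genes with a window and 3.97% of all 32851 windows. The sites of the 4 genes with an element before the start and a difference of -0.20 or lower are shown 5′ to 3′ on the gene's strand, with the element, or its reverse complement TTNCATCA, in capitals, because they are the ones lowest in siDhx30; Atf3, which also has an element there, differed by 0.57 the other way with overlap and repeated values in 3 libraries. They lie at chr7:126625562-126625591 (minus strand) for Nupr1, chr19:27216809-27216838 (plus) for Vldlr, chr6:7693214-7693243 (minus) for Asns and chr3:50443652-50443681 (minus) for Slc7a11. Those of Nupr1, Vldlr and Asns overlap a GENCODE exon of the gene, and that of Slc7a11 lies outside the gene.
Nupr1: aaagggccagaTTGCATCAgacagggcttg
Vldlr: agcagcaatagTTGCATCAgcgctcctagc
Asns: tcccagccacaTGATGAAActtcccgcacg
Slc7a11: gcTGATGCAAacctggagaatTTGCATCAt
Slc7a11 holds the element in both orientations within this stretch. Of the 9 genes with the element 7 were lower in siDhx30, with a median of -0.20, and of the 23 with a window and no element 16 were lower, with a median of -0.06. The other genes with it were Trib3, Aars, Gars, Pycr1 and Atf3, of which Pycr1 and Atf3 were the ones with a difference above 0. No kinase or upstream sensor of the response was among the 9, and the contrast between genes with and without the element was not tested. A match of letters is a description of the window and does not show binding. The list was made of known ATF4 targets and other genes of the response. The excess of the element over all genes therefore describes the choice of genes and is not a result of these libraries.

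**Figure D4:**
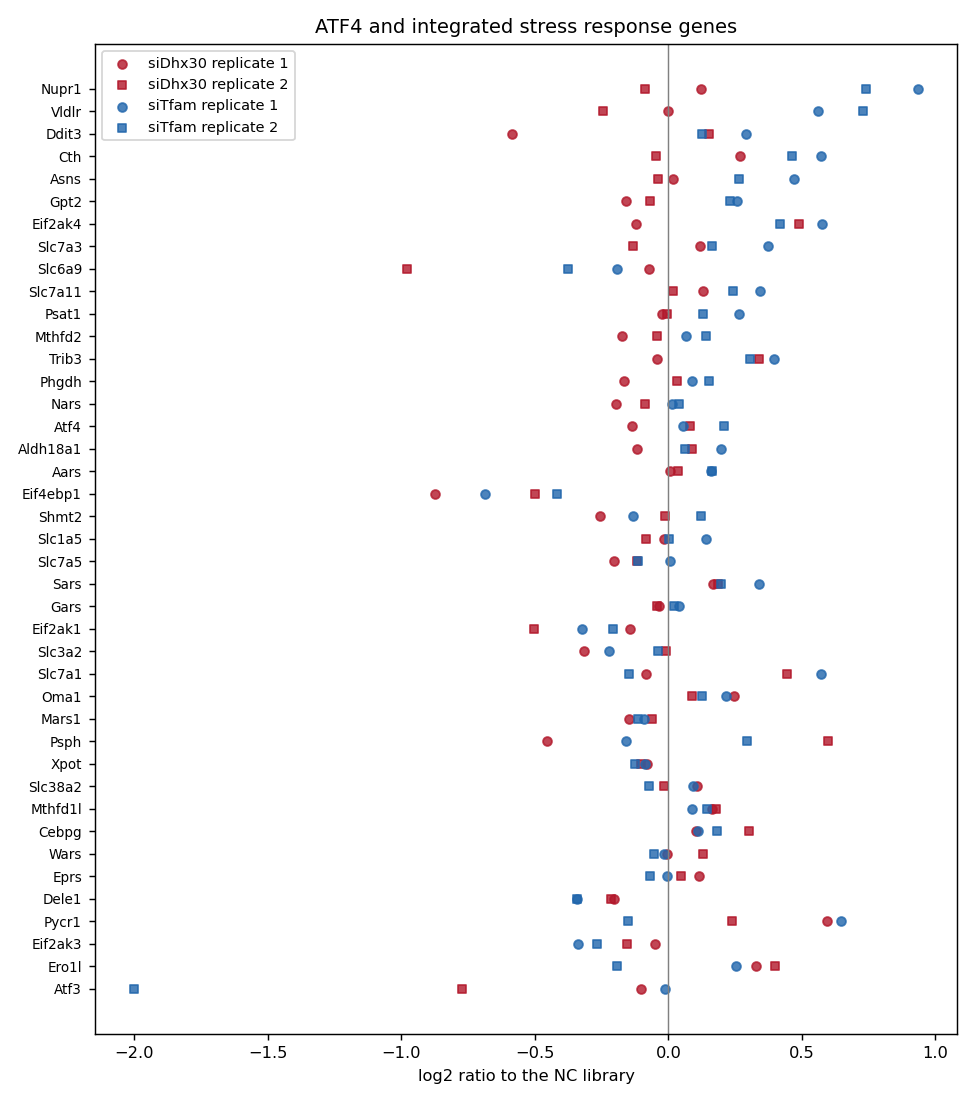
Log2 ratio to NC of the 41 integrated stress response genes, ordered by difference from the most negative at the top; red points are siDhx30, blue points siTfam, circles replicate 1 and squares replicate 2. In the upper rows, from Nupr1 to Gpt2, most blue points lie right of 0 and most red points near it, while in the lower rows colours are mixed.

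Other groups that answer stress had smaller median differences, though in some the share below without overlap exceeded the background of 14.3%. Of 27 genes of the oxidative stress response and glutathione 18 were lower, 8 (29.6%) without overlap, and the median was -0.06, or -0.01 with the trends removed. The mitochondrial thioredoxin reductase Txnrd2 was at -0.04 and -0.13 against 0.27 and 0.57, and Gpx4, the glutathione peroxidase that reduces lipid peroxides, at -0.09 and -0.20 against 0.10 and 0.17. Of 26 p53 targets and apoptosis genes 7 (26.9%) lay below and 2 (7.69%) above without overlap. Their median was -0.05, or -0.07 with the trends removed. Cdkn1a, the cyclin-dependent kinase inhibitor p21, was at -0.04 and -0.32 against 0.67 and 0.14, so that only the siTfam libraries were above NC; 1 library had a repeated value. Mdm2, the p53 ubiquitin ligase, went the other way, at 0.14 and 0.28 against -0.10 and -0.02. Of 54 autophagy and lysosome genes 16 (29.6%) lay below and 3 (5.56%) above without overlap. The group median was -0.04, or -0.05 with the trends removed. Becn1, a subunit of the autophagy initiation complex, was at -0.40 and -0.33 against -0.07 and 0.21. The 23 genes of the unfolded protein response of the endoplasmic reticulum and the 23 heat shock and chaperone genes had medians of 0.02 and -0.0051.

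The proteasome followed the ribosomes. Of its 43 genes 34 were lower in siDhx30, 13 (30.2%) without overlap, with a median of -0.08, and of -0.05 with the trends removed. The core particle had 12 of 13 genes lower (median -0.13) and the regulatory particle 15 of 18 (median -0.06). Psmb3, of the core, was at -0.09 and -0.15 against 0.09 and 0.21. Nucleolar ribosome biogenesis factors did not follow the ribosomal proteins, with 30 of 57 lower and a median of -0.0022. Of the 57, 5 lay above and 2 below without overlap, under the background shares of 14.7% and 14.3%. Among them Polr1a, the largest subunit of RNA polymerase I, was at 0.14 and 0.28 against -0.11 and -0.53. Of 38 aminoacyl-tRNA synthetases 9 (23.7%) lay below and 3 (7.89%) above without overlap. Wars2, the mitochondrial tryptophanyl-tRNA synthetase, was higher in siDhx30, at -0.02 and 0.09 against -0.40 and -0.60 (difference 0.53, SE 0.16). Translation factors, mitochondrial import genes and mitochondrial carriers had medians of -0.06, -0.05 and -0.07, those of the former pair being 0.01 and 0.0023 without siTfam replicate 2.

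Energy metabolism outside the respiratory chain showed smaller differences. Glycolysis genes were higher in 14 of 20, with a median of 0.08, and without siDhx30 replicate 2 the median was -0.08. Of the 20, 2 lay above and 2 below without overlap, under the background shares of 14.7% and 14.3%. Hypoxia response genes had opposite medians in the numbered pairs, -0.11 in the libraries numbered 1 and 0.28 in those numbered 2. Their median was 0.03, or -0.05 without siDhx30 replicate 2. Of the 16 genes Bnip3, Ero1l, Kdm3a, Ndrg1 and Plod2 lay above without overlap, and Car9 and Mxi1 below. The background shares were 14.7% and 14.3%. Ndrg1, a hypoxia-induced growth regulator, was above NC in all 4 libraries, at 1.31 and 1.31 against 0.89 and 0.49. Car9, the carbonic anhydrase induced by hypoxia, lay the other way, at 0.90 and 0.22 against 1.10 and 1.40, with a repeated value in 1 library. Of 23 cholesterol synthesis genes 16 were higher, 6 (26.1%) without overlap, with a median of 0.07, or 0.03 with the trends removed and -0.08 without siDhx30 replicate 2. Lss, lanosterol synthase, was at 0.01 and 0.05 against -0.10 and -0.29.

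Signalling genes of the Wnt, Notch and Hippo pathways lay on the siDhx30-high side. Of 27 Wnt and Notch genes 20 were higher, 8 (29.6%) without overlap against the background of 14.7%, with a median of 0.12, of 0.08 and 0.17 in the numbered pairs and of 0.09 with the trends removed. Axin2, a scaffold of the beta-catenin destruction complex and a feedback target of Wnt signalling, was at 0.15 and 0.14 in siDhx30 against -0.50 and -0.49 in siTfam. Its libraries agreed within each siRNA to 0.01, and the groups stood on opposite sides of NC, with a difference of 0.64 (SE 0.14, 1.56-fold, adjusted p = 0.999 in limma). Its paralogue Axin1 lay the other way, at -0.27 and -0.39 against -0.06 and 0.12. All 3 Notch receptors with values were higher, of which Notch2 and Notch4 lay above without overlap. Notch4 was at -0.78 and -0.70 against -1.33 and -2.02. Fzd3, a Wnt receptor, was at 1.09 and 1.12 against 0.84 and -1.09, with siTfam replicate 2 alone below NC and repeated values in 2 libraries.

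Of 21 Hippo pathway genes 18 were higher, 5 (23.8%) above and 0 below without overlap, and the median was 0.18. Amot, which holds the coactivator Yap in the cytoplasm, was at -0.22 and -0.69 against -1.66 and -0.95, with repeated values in 2 libraries. Lats2, the kinase that phosphorylates Yap, was above NC in all 4, at 2.07 and 2.49 against 2.07 and 1.41, with groups that met at 2.07 and repeated values in 2 libraries. Sav1 and Mob1a, cofactors of the pathway's kinases, lay above without overlap by 0.25 and 0.24. These transcripts are long (median 4720 nt), and the group median was 0.04 with the trends removed and 0.07 without siDhx30 replicate 2. Of 23 Fgf and Mapk genes 3 lay above and 3 below without overlap, near the background shares of 14.7% and 14.3%. Fgf15, a target of Fgf signalling in early embryos, was at -0.17 and -0.26 against 0.36 and 0.22, with repeated values in all 4. The 22 genes of Activin, Nodal, Tgf-beta and Bmp signalling had a median of -0.02. Without overlap 2 lay above and 3 below, again no more than the background shares.

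**Figure D5:**
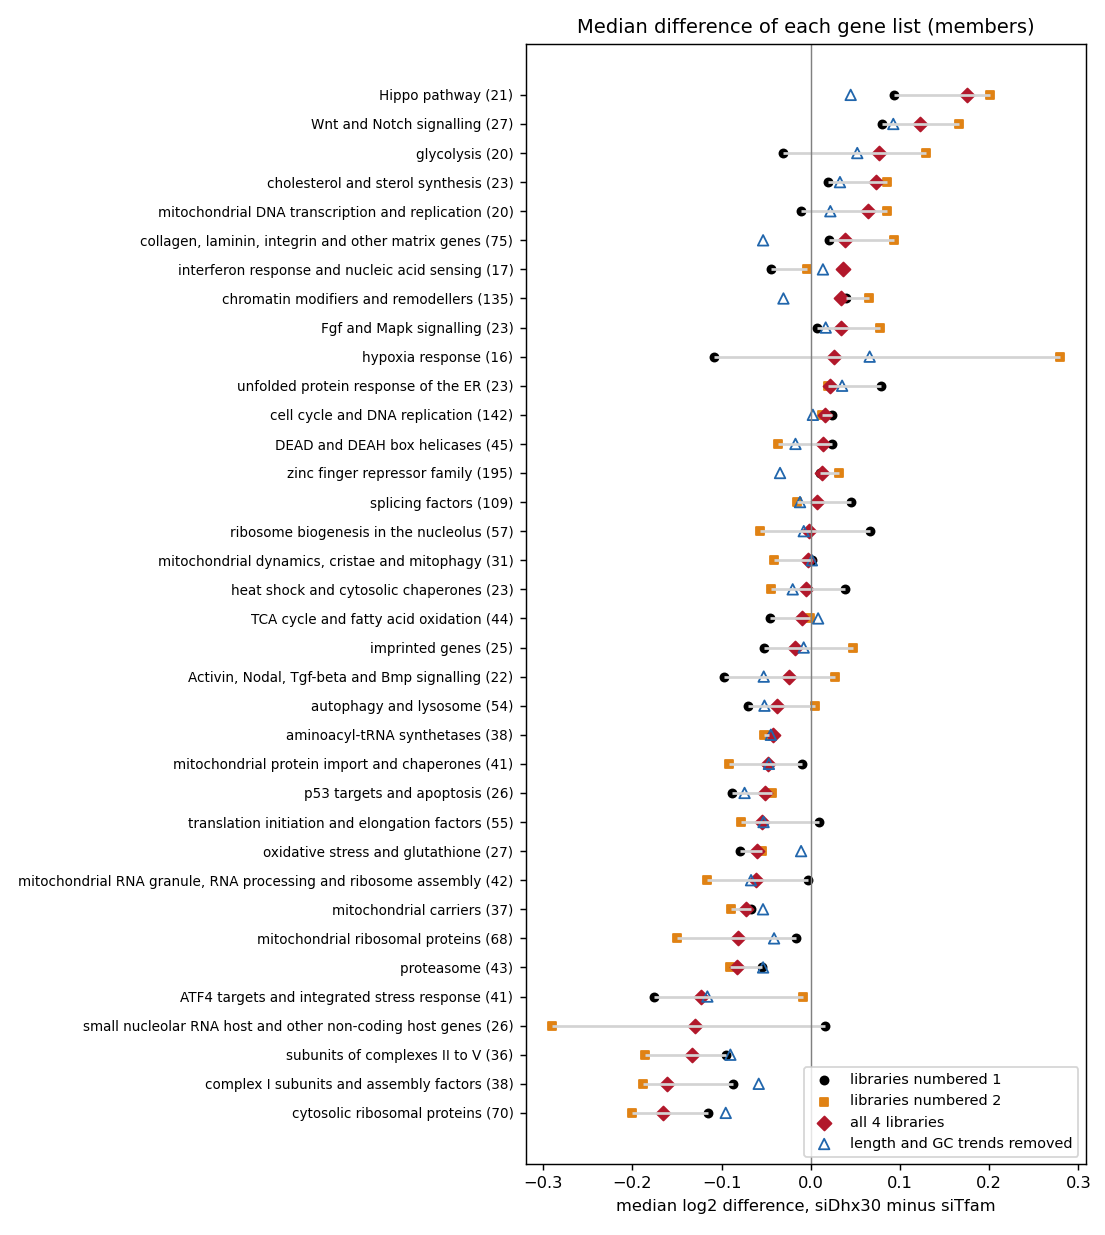
Median log2 difference, siDhx30 minus siTfam, of every gene list with 15 or more complete members (number of members in brackets): all 4 libraries as red diamonds, libraries numbered 1 as black circles, libraries numbered 2 as orange squares, and all 4 libraries with the length and GC trends removed as open triangles. Cytosolic ribosomal proteins (-0.17) and complex I (-0.16) lie furthest left and the Hippo pathway (0.18) furthest right, and most triangles lie nearer 0 than the diamonds of these groups.

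Larger families of nuclear proteins were near the background or moved with length. Of 135 chromatin modifiers and remodellers 34 (25.2%) lay above and 12 (8.89%) below without overlap, and the median was 0.03, but it was -0.03 with the trends removed from these long transcripts (median 5179.5 nt). The histone methyltransferase relative Prdm6 lay below, at -0.28 and -0.22 against 0.38 and 0.56, with repeated values in 3 libraries, and Sirt3, the mitochondrial deacetylase, above, at -0.06 and -0.08 against -0.35 and -1.01. Of 109 splicing factors and RBM-named RNA-binding proteins 21 (19.3%) lay above and 13 (11.9%) below. Rbm41, an RNA-binding protein of the minor spliceosome, was at 0.49 and 0.44 against -0.16 and -0.16, with a difference of 0.63 and an SE of 0.15. Rbm41 had no repeated value, and its groups stood on opposite sides of NC. Of 142 cell cycle and DNA replication genes 23 (16.2%) lay above and 19 (13.4%) below, with Cenpf, a kinetochore protein, at 0.49 and 0.44 against -0.15 and -0.81. The 195 zinc finger repressors had a median of 0.01, and the 45 DEAD and DEAH box helicases, Dhx30 among them, one of 0.01.

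Matrix genes and cell type markers were examined for the other cells that such a culture could hold. Of 75 collagen, laminin, integrin and other matrix genes 15 (20.0%) lay above and 8 (10.7%) below without overlap, and 33 had a repeated value; their median was 0.04, or -0.05 with the trends removed or without siDhx30 replicate 2. Itgb8, an integrin that activates Tgf-beta, was at -1.24 and -2.08 against -2.83 and -3.77. All 7 complete markers of primitive endoderm, the extraembryonic lineage of basement membrane producers, were higher in siDhx30, 3 of them (42.9%) without overlap, with a median of 0.40, or 0.28 with the trends removed. Dab2, an endocytic adaptor of that lineage, was at -1.04 and -0.02 against -1.62 and -1.30, and Col4a1, a basement membrane collagen, at -0.19 and 0.23 against -0.39 and -0.37. Lamb1, a laminin chain, was at 0.11 and 0.01 against -0.18 and -0.09. The defining factors Gata4, Gata6, Sox17 and Sox7 were not among the complete genes, and a few cells of this lineage cannot be told apart from lower expression in all cells. The list's long transcripts (median 6450 nt) lie where the length trend is positive.

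Markers of the naive state were lower in 5 of 6 complete genes, and 4 of the 6 had a repeated value. Only Tbx3 lay below and only Nr5a2 above without overlap. In so few genes that is near the background shares of 14.3% and 14.7%. Tbx3 was at -1.30 and -2.24 against -0.56 and -0.48, with repeated values in 3 libraries, and Esrrb at 0.06 and 0.02 against 0.85 and 0.02. Nr5a2 was higher, at 0.55 and 4.76 against 0.55 and -0.15, with siDhx30 replicate 2 far from the others and repeated values in 2 libraries. Formative and primed epiblast markers were 5 higher and 4 lower of 9, with Otx2, an early factor of this state, above NC in all 4 at 0.37 and 0.33 against 0.63 and 0.43. The de novo methyltransferase Dnmt3b was at -0.06 and 0.16 against -0.13 and -0.12, and Dnmt3a lay between 0.16 and 0.19 in all 4. The core factors Pou5f1, Sox2 and Nanog were not among the complete genes, so that the labelled cell type could be checked through these other markers only. Of the neural markers Pax6, Nes and Map2 were complete, with differences of -0.50, 0.75 and -0.39. Of 7 fibroblast and feeder markers 2 were higher and 5 lower, 5 with repeated values. No marker of 2-cell-like or streak cells was in the table.

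Non-coding host genes and small structural RNAs had a lower median in siDhx30 in the libraries numbered 2 and not in those numbered 1. Of 26 genes 21 were lower, 8 (30.8%) without overlap, with a median of -0.13, but the median was 0.02 in the libraries numbered 1 and -0.29 in those numbered 2, and it was 0.02 without siDhx30 replicate 2. Zfas1, a host of small nucleolar RNAs, was at -0.03 and -0.06 against 0.16 and 0.33. Rpph1, the RNA of RNase P, was at -1.42 and -1.40 against 1.52 and -0.84, with a repeated value in 1 library. Together with Rn7sk it was a transcript of RNA polymerase III lower in both siDhx30 libraries than in both siTfam libraries, and both had siTfam replicate 1 as the highest library.

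A further set of genes had no ratio in some libraries and could not enter the test. Values in both siDhx30 libraries and in neither siTfam library were present for 36 genes, and in both siTfam libraries and neither siDhx30 library for 45. Genes with a value in 1 library alone numbered 94 and 60 in siDhx30 and 65 and 113 in siTfam, so presence in 1 library was more frequent than presence in both of a group. Repeated values were present in 33 of the 36 and 40 of the 45. Of those without one, Tyk2, a Janus kinase of cytokine receptors, was at 3.46 and 3.62 in siDhx30, and Fam214b at 4.72 and 4.61 in siTfam. Tomm20l, a relative of the mitochondrial import receptor, was at 3.68 and 3.66 in siDhx30, and Art3, an ADP-ribosyltransferase relative, at 3.08 and 3.07 in siTfam, each with a repeated value. All 1574 values of genes with a value missing elsewhere lay above NC once turned. Under a filter on level that side is fixed by how such genes entered the table, so it is not a result about them. The level where a value was missing is not known.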

How the data were processed

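Total RNA of 5 samples of OG2 cells was made into cDNA libraries by template switching and sequenced as read pairs, per the labels' protocols. Reads were handled with bcl2fastq, HISAT2, featureCounts and DESeq2 (given as version 3.14) on GRCm38, per the submitters' processing notes; the sources used here name no settings, strand use or shrinkage. The authors deposited log2 fold values, 1 column per siRNA library, per the file headers, with NC as the other side of each ratio. NC cancels exactly only if the values are plain log2 ratios, which the files do not state. Depth is unknown, so no counting intervals are given.

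The sign was read from missing values. NC is part of all 4 ratios, so a gene kept through its NC level would have all 4 values, and one kept through an siRNA library would not. All 1574 deposited values of genes with a value missing elsewhere were negative, against 48.7% of those of complete genes. If the filter was a minimum level, the deposited ratio is NC over siRNA, and all values were turned.

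Names were matched to GENCODE M21 (12660 genes) or RefSeq (166), and 104 matched neither. The 12088 complete genes were fitted with limma 3.58.1 in R 4.3.3, 1 coefficient per siRNA, robust moderation and no trend, with 2 residual and 2.02 prior degrees of freedom, Benjamini-Hochberg adjustment and a threshold of 0.05. With 2 libraries against 2, no exact permutation test can pass that threshold. The test was tried on simulated data, 200 changed genes in each of 5 runs. Lists are described by counts and medians with no test. Named genes were the 12 with the widest gap each way, Dhx30, Tfam, the 5 smallest p and up to 4 members per list with the widest gap; other genes, and groups by role within a list, were picked with their values known. Some genes this would name are not reported here. The members and the 46 lists were chosen with earlier results of these data known. Alternatives were other moderation, a replicate block, each library left out, centred libraries, genes with missing values, protein-coding genes, removal of length and GC trends and, added after seeing the data, leaving out genes with repeated values.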

Additional observations from a re-analysis of the deposited data

How the results depend on the processing

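No gene passed an adjusted p of 0.05 in limma under any of the 11 alternatives, whose smallest adjusted p ranged from 0.49 (without siTfam replicate 1) to 1.00 (without siTfam replicate 2). The 337 genes at an unadjusted p under 0.05 became 202 when genes with repeated values were left out, and 279 to 921 when each library was left out in turn, 921 without siTfam replicate 1 and 665 when siDhx30 replicate 1 was dropped; the lone library is then assumed to vary like the other group. With a replicate block the count was 566 and the smallest adjusted p 0.886. Within-group deviations of the 2 siRNAs correlated at 0.254, over only 2 numbers, so the libraries are taken to share only a number.

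With a library left out, groups did not overlap in 29.61% to 35.37% of genes with siDhx30 higher and in 29.44% to 35.73% with siDhx30 lower, since 3 libraries overlap less often than 4. Dhx30 stayed between -0.43 and -0.22 and Tfam between 0.07 and 0.33. Of 438 list medians under alternatives 49, in 26 of 44 lists, had the other sign, 36 of them with a library left out; most of these lists had a median within the spread between libraries. Among those beyond it, chromatin modifiers stood at -0.0307 with the length and GC trends removed and cell cycle genes at -0.0003 without siDhx30 replicate 1 (up to 0.0336 with another library left out). Cytosolic ribosomal proteins, the respiratory chain lists, the proteasome, ATF4 targets, Wnt and Notch, Hippo and primitive endoderm genes were among the 18 lists whose median kept its sign under every alternative run. The leading genes kept their direction in all 238 values computed for them. They were picked because their groups do not overlap, so leaving a library out could not turn them, and this is no check of them. Unknown depth limits most of all the genes with repeated values, taken to have few reads, which lead by size.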
